A study of Mus musculus with 11 samples.

Results

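Within the stem cell gate of mice with normal platelets, cells that carry CD41 on their surface were compared with cells that lack it. The comparison takes the 5 control libraries of a series of 11, chosen by their labels: 2 of CD41+ cells and 3 of CD41- cells. Donors were C57BL/6 mice given control rabbit serum, and no allele or transgene is named for any group. Every library was made from RNA of 1000 bone marrow cells sorted as lineage-negative, c-Kit+, Sca-1+, CD48- and CD150+, with 3 mice pooled in each, so a p-value measures the spread between such pools. The 6 other libraries, 3 CD41+ and 3 CD41- from the same strain and gate, came from mice 24 h after platelet depletion. They entered the fit for its estimate of spread, and their CD41 difference is set beside the control values.

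CD41 is the alpha chain of the fibrinogen receptor of platelets, an integrin that megakaryocytes assemble with the beta-3 chain. Some haematopoietic stem cells already carry it and transcribe megakaryocyte genes, and such cells have been described as primed for platelet production. Most stem cells rest outside the cell cycle, and FoxO transcription factors and cyclin-dependent kinase inhibitors are known to hold them there. Entry into the cycle is marked first by E-type cyclins and replication genes, which E2F factors drive, and later by B-type cyclins and genes of the spindle and kinetochore.

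The control libraries held 3.46 to 4.27 M counts over 16440 to 18280 genes with a count. A floor of 3 counts corresponded to 0.703 to 0.867 per 1 M counts of a library before TMM scaling. CPM is the count of a gene per 1 M counts of its library after TMM scaling, and intervals or floors cover counting error only. Levels below are CPM, with CD41- replicates 1, 2 and 3 first and CD41+ replicates 1 and 2 after them, and differences are log2 fold changes of CD41+ over CD41- cells ± SE. Across genes, log2 CPM correlated at 0.926 between the CD41+ libraries, at 0.909 to 0.93 among the CD41- libraries and at 0.869 to 0.909 between the fractions. The first principal component of the 5 libraries, with 41.1% of the variance, placed the CD41+ libraries at 52.7 and 59.5 and the CD41- libraries at -67.2 to -15.4. Fewer cells with a transcript and less of it per cell cannot be told apart in such pooled RNA.

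Some libraries stood apart in transcripts of other cells. The summed level of 19 neutrophil granule genes was 10230 to 16220 CPM in CD41- cells, 28350 CPM in CD41+ replicate 1 and 94410 CPM in CD41+ replicate 2. In CD41- replicate 3, the basophil protease gene Mcpt8 reached 598 counts, against 0 and 2 counts in the other CD41- libraries and 32 and 17 counts in the CD41+ libraries. Mcpt8 was picked out after its values were seen. The overall count and the counts of the cell-cycle lists are given with and without these libraries. For most other lists only the CD41+ libraries were left out.

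Of 13448 genes tested, 352 passed the edgeR quasi-likelihood test at a Benjamini-Hochberg adjusted p of 0.05, which is 2.62% of them. In CD41+ cells 212 genes were higher (1.58%) and 140 were lower (1.04%), and 211 and 128 of these were protein-coding. The CPM of the fractions did not overlap for any of the 352, but this alone was common: it held for 17.4% of all genes toward higher and 17.5% toward lower levels. An unadjusted p under 0.05 was also common, at 18.9% of all genes in both directions together. The decreases were larger: 137 of 140 were at least 2-fold and 43 at least 4-fold, against 136 and 29 of the 212 increases. The smallest fold that passed was 1.51. With library size alone for scaling, 129 were higher and 157 lower, and the median of all genes was -0.15 instead of -0.03. The count rested on single libraries: it was 48 without CD41+ replicate 2, 132 without CD41+ replicate 1, 130 without CD41- replicate 3 and 210 without CD41- replicate 1. Among the depleted libraries, leaving out CD41- replicates 1 and 3 gave 223 and 234. Leaving out depleted CD41+ replicate 1, which held 0.974 M counts, gave 545. With one CD41+ library left, that library was taken to vary like the others.

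**Figure D1:**
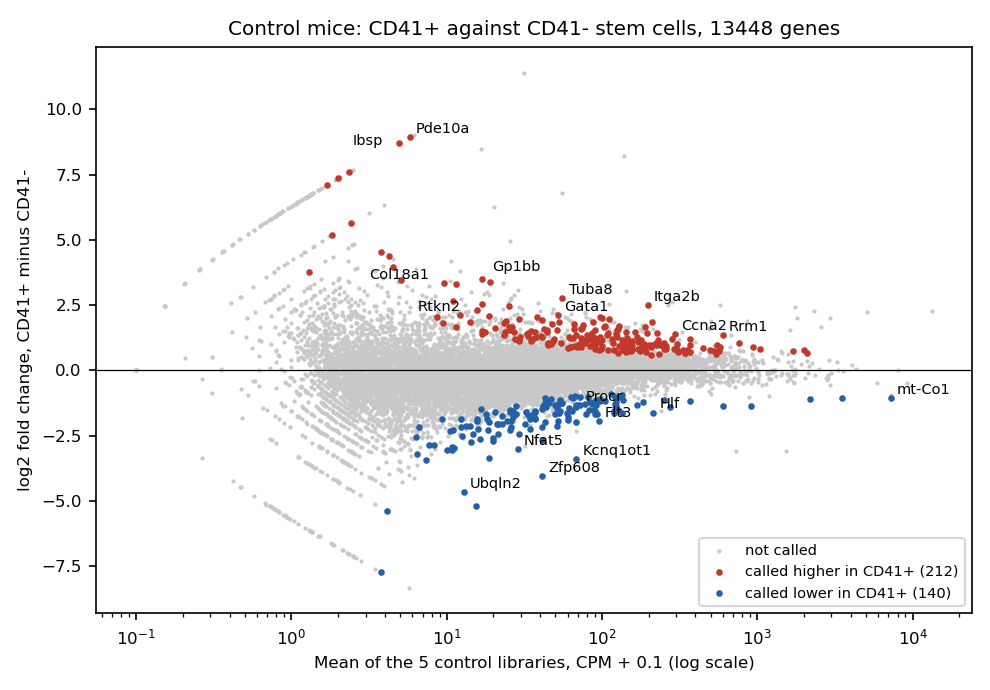
Each point is 1 of 13448 genes. The horizontal axis is its mean CPM over the 5 control libraries plus 0.1 on a log scale, and the vertical axis the log2 fold change of CD41+ over CD41- cells. Red points passed as higher (212) and blue points as lower (140). Points in diagonal rows at the left have no count in 1 fraction, where the fitted fold depends on the prior count. Itga2b and Gp1bb stand among the largest increases, and Zfp608 and Kcnq1ot1 among the largest decreases with a mean above 10 CPM.

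The genes behind the sort were read first. Itga2b, the gene of CD41 itself, lies on the minus strand of GRCm38 chromosome 11 at 102453297 to 102470122. It was at 98.5, 46.1 and 62.5 CPM in CD41- cells and at 425 and 354 CPM in CD41+ cells. Both CD41+ libraries lay far above all CD41- libraries (2.50 ± 0.26, adjusted p = 0.00198). Slamf1, the gene of CD150, for which both fractions were gated positive, was at 25.3, 20.7 and 16.8 CPM and at 56.9 and 47.0 CPM. It was higher in both CD41+ libraries (1.31 ± 0.28, adjusted p = 0.025). Ly6a, the gene of Sca-1, was at 236, 490.3 and 256 CPM in CD41- and at 124 and 97.8 CPM in CD41+ cells. It did not overlap between the fractions either, yet missed the threshold (-1.56 ± 0.39, adjusted p = 0.052). Kit (-0.47 ± 0.63) and Cd48 (0.64 ± 0.52) overlapped and did not pass. Of the genes of the gate, Kit and Ly6a were thus plainly present in all 5 libraries, and Cd48 was at 12.9 to 54.4 CPM.

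Platelet receptors rose with Itga2b, in part. Among 9 tested platelet adhesion receptors, 3 rose and 0 fell, with a median log2 fold change of 0.92 against -0.03 over all genes. With CD41+ replicate 1 or replicate 2 left out, 1 passed. Gp1bb, part of the receptor for von Willebrand factor (chromosome 16, minus strand, 18620317 to 18622403), was at 3.58, 1.57 and 4.62 CPM in CD41- and at 44.6 and 29.2 CPM in CD41+ cells. Its CD41+ libraries did not come near the others (3.49 ± 0.54, adjusted p = 0.00519). Gp5 (chromosome 16, 30307685 to 30310779, minus strand), which joins the same complex, was at 27.2, 17.3 and 27.0 CPM and at 81.8 and 83.1 CPM (1.79 ± 0.32, adjusted p = 0.012). The CD41+ libraries lay close together for Gp5, at about 3 times the highest CD41- library. Treml1, a receptor stored in platelet granules, was at 8.53, 4.97 and 3.89 CPM and at 41.9 and 25.0 CPM (2.53 ± 0.50, adjusted p = 0.0176). The remaining chains of the von Willebrand factor receptor did not pass: Gp9 was at 44.8, 30.6 and 29.4 CPM and at 79.4 and 32.3 CPM (0.67 ± 0.46), and Gp1ba stood at -0.63 ± 0.57. Itgb3, the beta chain that pairs with CD41, was at 18.4, 18.6 and 28.5 CPM and at 48.9 and 40.8 CPM, without overlap but with an adjusted p of 0.235 (1.04 ± 0.45).

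Granule cargo was split. Of 30 tested genes of platelet granule cargo and granule formation, 4 rose and 0 fell, with a median of 0.15. Without CD41+ replicate 2, 2 passed, and without replicate 1, 1. Clu, the chaperone clusterin, was at 11.6, 14.7 and 24.3 CPM in CD41- and at 76.7 and 63.0 CPM in CD41+ cells (2.04 ± 0.29, adjusted p = 0.00367). Serpine2, an inhibitor of thrombin, was at 0.825, 3.93 and 6.81 CPM and at 30.5 and 51.9 CPM (3.39 ± 0.70, adjusted p = 0.0252). Sparc, a secreted matrix protein that platelets store, was higher by 2.46 ± 0.57 (adjusted p = 0.0452). Pf4, the platelet chemokine, was the uneven case, with 41, 31.1 and 56.2 CPM against 286 and 71.0 CPM. Its difference of 2.06 ± 0.47 (adjusted p = 0.0395) came to 0.76 without CD41+ replicate 1 and no longer passed (adjusted p = 0.42). Vwf, von Willebrand factor itself, was at 26.1, 16 and 34.8 CPM and at 83.9 and 42.3 CPM, without overlap and just short of passing (1.30 ± 0.33, adjusted p = 0.0538). Mmrn1 (0.03 ± 0.52), Selp (0.28 ± 0.47) and Ppbp (-1.33 ± 0.87), which encode multimerin, P-selectin and a platelet chemokine precursor, overlapped between the fractions.

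In platelet signalling 4 of 37 tested genes rose and 1 fell, beside 1.58% and 1.04% of all genes. Without CD41+ replicate 2, 0 rose and 0 fell, and without CD41+ replicate 1, 1 rose and 1 fell. F2r (chromosome 13, 95601803 to 95618487, minus strand), a thrombin receptor, was at 144, 197 and 216 CPM in CD41- and at 429 and 421 CPM in CD41+ cells. Its CD41+ libraries lay close together and above the rest (1.19 ± 0.20, adjusted p = 0.00751). F2rl2, a further member of that receptor family, rose by 2.32 ± 0.57, Plek, a substrate of protein kinase C in platelets, by 1.67 ± 0.37, and Rap1b, the small GTPase behind integrin activation, by 0.98 ± 0.21. Gnaq, a G-protein subunit below such receptors, fell, from 28.3, 29.1 and 33.6 CPM to 10.4 and 4.13 CPM (-2.06 ± 0.43, adjusted p = 0.0236). Of 40 megakaryocyte cytoskeleton genes 4 rose and 0 fell, with 1 call without CD41+ replicate 2 and 2 without replicate 1. Tuba8 (chromosome 6, 121210696 to 121226854, plus strand), an alpha tubulin, was at 24.2, 13.1 and 12.6 CPM and at 129 and 97.8 CPM (2.77 ± 0.35, adjusted p = 0.00304). The others were Tuba1c (1.42 ± 0.27), Tubb5 (0.74 ± 0.18) and Lims1 (0.84 ± 0.15), of which the tubulins also serve the mitotic spindle. Among the largest increases outside these lists, Col18a1, a basement-membrane collagen, was at 4.68, 0.785 and 0.73 CPM and at 21.4 and 20.1 CPM (3.34 ± 0.59, adjusted p = 0.0101). Rtkn2 was at 2.75, 3.93 and 0.73 CPM and at 22.7 and 26.3 CPM (3.31 ± 0.56, adjusted p = 0.00756). Pde10a had no count in any CD41- library and 13.6 and 14.7 CPM in CD41+ cells, at least 54.6-fold higher against 3 counts over the group. It was one of 5 genes that were called higher with no count in CD41- cells, beside Ibsp, Kitl, Scamp5 and Nphp4.

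Transcription factors of the lineage did not follow as a group. Of 31 tested megakaryocyte and erythroid transcription factors, 1 rose and 4 fell, with a median of -0.22. With control libraries only, 0 rose and 3 fell. The median was -0.17 without CD41+ replicate 2 and -0.21 without CD41+ replicate 1. The call toward higher needed both CD41+ libraries, as did most calls toward lower. Gata1 (chromosome X, 7959260 to 7978071, minus strand), needed for both lineages, was at 30.8, 29.6 and 6.81 CPM in CD41- and at 94.3 and 98.3 CPM in CD41+ cells (2.11 ± 0.44, adjusted p = 0.0236). The lowest value belonged to CD41- replicate 3, and both CD41+ libraries were about 3 times the highest CD41- library. Gfi1b (0.75 ± 0.20, adjusted p = 0.0629), Fli1 (0.51 ± 0.16, adjusted p = 0.0928) and Klf1 (1.31 ± 0.46, adjusted p = 0.139) were above all CD41- libraries and did not pass. Erg and Bcl11a fell and are described with the stem cell regulators. Tgif1 (-1.14 ± 0.19, adjusted p = 0.00751) and Cbfa2t3 (-1.50 ± 0.31, adjusted p = 0.0205) fell too.

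**Figure D2:**
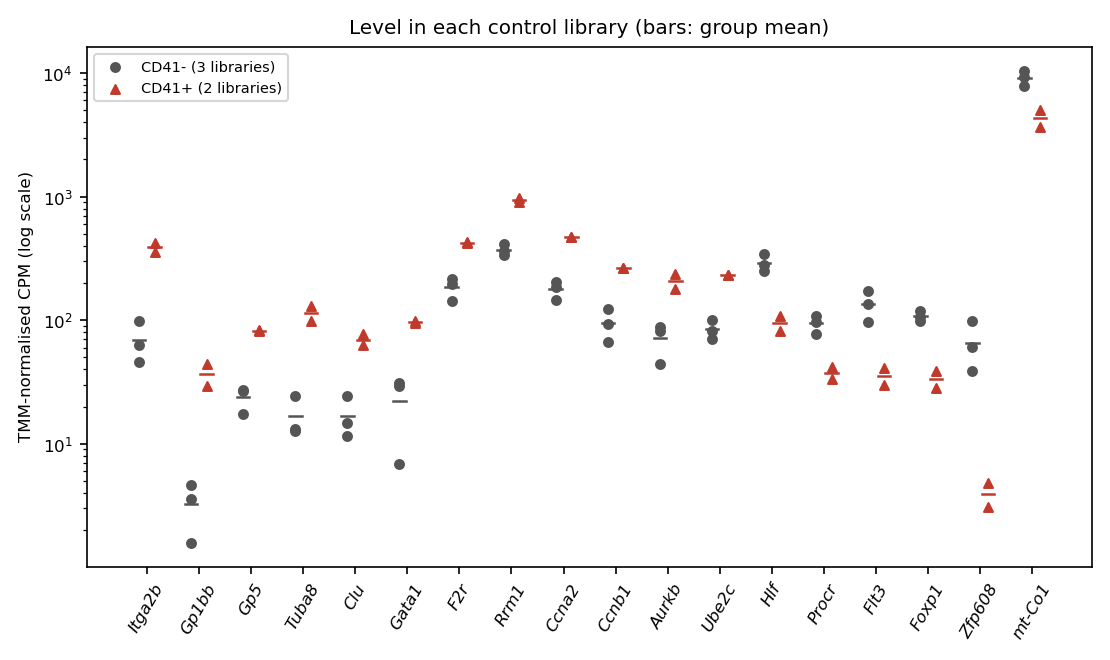
CPM of 18 genes in each control library on a log scale, circles for the 3 CD41- and triangles for the 2 CD41+ libraries, with a bar at each group mean. In each of the 18 genes the CD41+ libraries lie on 1 side of all CD41- libraries, above for Itga2b through Ube2c and below for Hlf through mt-Co1. The spread between CD41- libraries is widest for Gata1.

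Cell-cycle genes made up a large share of what rose. The 4 lists, of cyclins and their kinases, of replication and nucleotide supply, of kinetochore and checkpoint, and of spindle and cytokinesis, held 197 tested genes. Of these 67 rose, or 34.0% against 1.58% of all genes, and 0 fell with edgeR. At an unadjusted p under 0.05, 130 were higher and 6 lower, beside 18.9% of all genes in either direction. The levels of 142 were higher without overlap and those of 7 lower, beside 17.4% and 17.5% of all genes, and the median difference was 0.81. CD41+ replicate 1 taken alone stood at medians of 0.56, 0.67, 0.83 and 0.95 above the CD41- mean in the lists in that order, and replicate 2 at 0.82, 0.80, 0.98 and 1.09. Replicate 1 had the lower neutrophil sum of these libraries, though above every CD41- library, and the part of neutrophil RNA in the shift was not tested. With CD41- replicate 3 removed, the members that passed in the lists in that order numbered 8, 11, 7 and 10. The calls were fewer with either CD41+ library removed: 5, 3, 5 and 4 members passed without replicate 2 and 9, 11, 10 and 10 without replicate 1, against 11, 25, 14 and 17 with both.

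Cyclins of the E, A and B types rose, and those of the D type were mixed. Ccne2 (chromosome 4, 11191351 to 11204779, plus strand), the cyclin that opens S phase, was at 70.7, 56.0 and 39.4 CPM in CD41- and at 168 and 189 CPM in CD41+ cells (1.69 ± 0.22, adjusted p = 0.00304). Ccna2 (chromosome 3, 36564865 to 36572150, minus strand), cyclin A2 of S and G2 phase, was at 186, 205 and 145 CPM and at 468 and 471 CPM (1.40 ± 0.21, adjusted p = 0.00383). The mitotic cyclin Ccnb1 (chromosome 13, 100778650 to 100786570, minus strand) was at 93.2, 123 and 66.9 CPM and at 263 and 264 CPM (1.48 ± 0.22, adjusted p = 0.00367). The CD41+ libraries almost coincided for Ccna2 and Ccnb1, and no CD41- library reached them. Ccnb2 and Ccnf, further cyclins of late cycle, rose by 1.28 ± 0.18 and 1.84 ± 0.25, Fbxo5, an inhibitor of the anaphase-promoting complex, by 1.35 ± 0.19, and Cdc20, its activator, by 1.19 ± 0.23. The kinases Cdk1 (1.11 ± 0.22) and Cdk2 (0.85 ± 0.16) rose as well. Of the D cyclins, which respond to growth signals in G1, Ccnd3 rose by 0.90 ± 0.17, while Ccnd2 (-0.47 ± 0.23) and Ccnd1 (-0.03 ± 0.42) did not pass. Their kinases Cdk6 (-0.02 ± 0.19) and Cdk4 (0.33 ± 0.15) did not pass, nor did the inhibitors Cdkn1a (-0.27 ± 0.57), Cdkn1b (-0.64 ± 0.56) and Cdkn1c (-1.18 ± 0.80).

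In the replication list, 25 of 70 tested genes rose and 65 had a positive difference. Rrm1 (chromosome 7, 102441695 to 102469771, plus strand), the large subunit of ribonucleotide reductase, was at 366, 414 and 335 CPM in CD41- and at 908 and 976 CPM in CD41+ cells. Rrm2, its small subunit, was at 138, 113 and 60.6 CPM and at 317 and 425 CPM (1.84 ± 0.27, adjusted p = 0.00367). Mcm5, a subunit of the replicative helicase, was at 271, 279 and 173 CPM and at 513 and 597 CPM (1.2 ± 0.19, adjusted p = 0.00617). In all of these the CD41- replicate 3 was the lowest library. Mcm2, Mcm3, Mcm4, Mcm6 and Mcm8 rose too, as did the loading factors Cdc6 (1.23 ± 0.23) and Cdc45 (1.62 ± 0.27), the clamp loader subunit Rfc5 (1.05 ± 0.16), the histone chaperone Asf1b (1.69 ± 0.22) and the thymidylate genes Tk1 (1.29 ± 0.21) and Tyms (1.39 ± 0.25). Pcna, the sliding clamp, was at 0.51 ± 0.20 and did not pass.

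Among kinetochore and checkpoint genes 14 of 47 rose. Cdca8, of the chromosomal passenger complex (chromosome 4, minus strand, 124918465 to 124939311), was at 55.6, 74.1 and 71.0 CPM in CD41- and at 164 and 175 CPM in CD41+ cells (1.34 ± 0.17, adjusted p = 0.0029). Aurkb, the kinase of that complex, was at 87.5, 81.7 and 44.5 CPM and at 179 and 235 CPM (1.54 ± 0.25, adjusted p = 0.00602). Every other kinetochore gene named here was also separated: Cenpi (1.57 ± 0.22) and Sgo1 (1.95 ± 0.29), of the centromere, and Spc24 (1.43 ± 0.21) and Spc25 (1.29 ± 0.19), which hold microtubules in the Ndc80 complex. Of 49 genes of spindle and cytokinesis 17 rose. Ube2c (chromosome 2, 164769898 to 164778822, plus strand), the ubiquitin-conjugating enzyme of the anaphase-promoting complex, was at 81.7, 101 and 70.8 CPM and at 232 and 230.2 CPM (1.45 ± 0.19, adjusted p = 0.00304). Kif22 (1.15 ± 0.16), a chromokinesin, Tacc3 (1.56 ± 0.22) and Nusap1 (1.59 ± 0.23), which act on spindle microtubules, and Racgap1 (1.16 ± 0.18), of the cytokinesis furrow, rose. Not all proliferation markers did. Mki67, the Ki-67 antigen, was at 27.2, 8.11 and 32.1 CPM and at 9.62 and 12.1 CPM (-1.05 ± 0.73), and Cenpe, a kinetochore motor, stood at -1.36 ± 0.55 and Top2a, which untangles DNA, at 0.82 ± 0.30, all without passing.

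Repair and chromosome-structure genes moved less uniformly. Of 44 genes of recombination and damage response, 4 rose and 0 fell (median 0.54): among them Exo1 (1.54 ± 0.24), Brip1 (1.64 ± 0.33) and Rad18 (1.02 ± 0.20), which resect, unwind or bypass damaged DNA. With control libraries only, 1 gene of that list passed. Its median was 0.50 without CD41+ replicate 2 and 0.60 without CD41+ replicate 1. Of 22 condensin and cohesin genes, 4 rose and 1 fell, with a median of -0.05. Cdca5, the cohesin protector sororin, was at 39.1, 52.9 and 25.3 CPM and at 145 and 115 CPM (1.74 ± 0.26, adjusted p = 0.00464). Nipbl, the cohesin loader, was at 58.3, 51.0 and 46.5 CPM and at 17.9 and 10.3 CPM (-1.88 ± 0.38, adjusted p = 0.0204). Loader and protector of the same ring thus lay on opposite sides. E2f8 and Tfdp1, of the E2F family and its partners, rose by 1.62 ± 0.34 and 0.95 ± 0.23, and the progenitor regulator Myb fell by 1.32 ± 0.27 on the log2 scale (from 204, 177 and 278 to 89.8 and 85.9 CPM).

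Sequence upstream of these genes was read as well. RefSeq promoter windows of GRCm38.p6 were found for 57 of the 67 cell-cycle genes that rose, 63 windows in all, and the 250 bases before each start were searched on both strands. The letters CCAAT, which the factor NF-Y recognises, stood in 61.9% of these windows against 33.8% of all 32851 promoter windows. TTTGAA, the core of the element known as CHR in genes of G2 and mitosis, stood in 28.6% against 16%. An E2F-type run (TTTCCCGC, TTTCGCGC, TTTGCCGC or TTTGGCGC) stood in 9.52% against 1.86%. Matches of different motifs can share a base where they adjoin, and a match is a description of letters only. Below are the 150 bases before the start of cyclin B2 (chr9:70421555-70421704, minus strand), Rrm1 (chr7:102441545-102441694, plus strand), Mcm5 (chr8:75109359-75109508, plus strand) and Spc25 (chr2:69206214-69206363, minus strand), 5′ to 3′, with these letters in capitals.
Ccnb2: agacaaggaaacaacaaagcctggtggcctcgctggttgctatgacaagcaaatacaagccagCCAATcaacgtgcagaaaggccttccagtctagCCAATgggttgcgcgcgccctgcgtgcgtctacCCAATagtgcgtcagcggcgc
Rrm1: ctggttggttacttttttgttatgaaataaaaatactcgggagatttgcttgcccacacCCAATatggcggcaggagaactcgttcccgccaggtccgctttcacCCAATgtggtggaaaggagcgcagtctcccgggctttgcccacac
Mcm5: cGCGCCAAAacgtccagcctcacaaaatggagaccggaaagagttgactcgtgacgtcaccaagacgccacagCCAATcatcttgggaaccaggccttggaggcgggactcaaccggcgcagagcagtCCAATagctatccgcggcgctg
Spc25: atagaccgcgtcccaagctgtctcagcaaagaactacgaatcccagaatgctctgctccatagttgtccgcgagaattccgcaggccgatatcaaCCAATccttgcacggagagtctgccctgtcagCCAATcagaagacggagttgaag
Ccnb2 holds 3 such runs, Mcm5 3, Rrm1 2 and Spc25 2, and the first of Mcm5, near the far end of its window, is the E2F-type run read on the other strand. The printed windows are those with the most runs. Of the other cell-cycle windows read in this way, Racgap1 holds 1 run and Cenpi, Sapcd2, Tacc3 and Nusap1 hold 0.

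GATA-type letters (AGATAA or TGATAA on either strand) stood in 16.6% of all windows and in 3 of the 10 windows of the 9 tested platelet adhesion receptors, too few to compare. No share is given for the granule and erythroid lists, where windows were matched for 22 of 30 and 26 of 33 tested genes, less than the 80% required for such a check. Gp5 (chr16:30310782-30310931, minus strand) and the erythropoietin receptor gene Epor (chr9:21963577-21963726, minus strand) are printed as genes of the platelet and erythroid lists that rose, with the letters in capitals.
Gp5: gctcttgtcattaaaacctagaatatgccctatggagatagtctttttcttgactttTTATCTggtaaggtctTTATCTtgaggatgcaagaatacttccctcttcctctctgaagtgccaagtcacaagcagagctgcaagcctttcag
Epor: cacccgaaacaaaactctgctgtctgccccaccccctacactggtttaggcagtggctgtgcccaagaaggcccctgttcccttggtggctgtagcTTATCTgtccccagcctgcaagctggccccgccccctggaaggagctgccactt
Gp5 holds 2 matches and Epor 1. The 150 bases before the start of Pf4, Gata1 and Aqp1 hold none, which says only that these letters are not in that window.

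Erythroid genes leaned the same way as the platelet genes. Of 33 tested, 4 rose and 0 fell, 28 had a positive difference, and the median was 0.93. The calls needed both CD41+ libraries: 0 passed without replicate 1 or without replicate 2, where the medians were 1.05 and 0.92, and 1 passed with control libraries only. Epor was at 19.8, 25.1 and 15.3 CPM in CD41- and at 67.6 and 45.4 CPM in CD41+ cells (1.49 ± 0.31, adjusted p = 0.0236). Aqp1, a water channel of red cells, was at 14.6, 11.3 and 8.27 CPM and at 48.4 and 36.6 CPM (1.90 ± 0.35, adjusted p = 0.0141). Gata1, described above, was also among the members that rose. All 6 defining red cell markers, Hba-a1, Hbb-bs, Hbb-bt, Alas2 and Slc4a1 among them, were above every CD41- library in both CD41+ libraries, and 0 of them passed. Slc4a1, the anion exchanger of the red cell membrane, was at 0, 6.28 and 7.78 CPM and at 38.2 and 37.9 CPM. Hbb-bs, a beta globin, was at 527, 102 and 98.5 CPM and at 837 and 941 CPM, so that CD41- replicate 1 lay between. Summed over the list, CD41- libraries held 3597 to 5788 CPM and CD41+ libraries 7575 and 6316 CPM. Whether red cell RNA in the sorted pools had a part in the erythroid result was not tested.

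Some regulators of stem cell identity fell. Of 51 tested stem cell transcription regulators, 6 fell and 0 rose (1.04% of all genes fell), 42 had a negative difference, and the median was -0.52. Hlf (chromosome 11, 90336536 to 90390895, minus strand), a factor largely confined to stem cells within blood, was at 343, 252 and 281 CPM in CD41- and at 108 and 81.5 CPM in CD41+ cells. Both CD41+ libraries lay below every CD41- library (-1.62 ± 0.26, adjusted p = 0.00561). Erg (chromosome 16, 95359169 to 95586593, minus strand), an ETS factor required for stem cell maintenance, was at 25.3, 20.9 and 19.7 CPM and at 5.88 and 6.19 CPM (-1.86 ± 0.38, adjusted p = 0.0202). Sox4 was at 94.6, 96.6 and 97.5 CPM and at 32.9 and 16.5 CPM (-1.96 ± 0.34, adjusted p = 0.00926). Bcl11a (-1.15 ± 0.19), a repressor of fetal globin with a role in lymphoid potential, and Dnmt3a (-1.36 ± 0.29), the DNA methyltransferase that limits self-renewal, fell as well. Zfp608, a zinc finger gene, was at 61.1, 38.7 and 98.3 CPM and at 4.81 and 3.10 CPM. Mecom (-1.02 ± 0.40, adjusted p = 0.188) and Meis1 (-0.31 ± 0.17, adjusted p = 0.355), further regulators of stem cells, did not pass. Without CD41+ replicate 2 the list had 1 member that passed.

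Surface proteins used to grade stem cells went both ways. Procr (chromosome 2, 155751117 to 155755471, plus strand), the protein C receptor on the most potent stem cells, was at 77.8, 109 and 96.6 CPM in CD41- and at 42.2 and 33.3 CPM in CD41+ cells (-1.32 ± 0.26, adjusted p = 0.0164). Cd9, a tetraspanin of stem cells and megakaryocytes, was at 202, 249 and 202 CPM and at 438 and 429 CPM (0.99 ± 0.19, adjusted p = 0.0147). Both were without overlap, in opposite directions. With Flt3, 3 of 27 tested genes of that list passed, and Cd34 (-0.58 ± 0.16, adjusted p = 0.074), Esam (-0.03 ± 0.18) and Cd63 (0.03 ± 0.16) did not. Without CD41- replicate 3, 0 genes of the list passed as higher and 1 as lower. The calls of Procr, Cd9 and Flt3 needed both CD41+ libraries, and each was lost when either of these was left out. The differences of these genes in the runs with 1 library left out were -1.48 to -1.16, 0.94 to 1.10 and -2.17 to -1.70.

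Genes of quiescence and of signalling below PI3K that passed were lower. In the FoxO and quiescence list 4 of 38 tested genes fell and 0 rose (median -0.38). Foxo3, a FoxO factor that keeps stem cells at rest, was at 77.8, 34.8 and 60.3 CPM in CD41- and at 20.8 and 22.4 CPM in CD41+ cells (-1.41 ± 0.33, adjusted p = 0.0381). Pik3ip1, an inhibitor of PI3K, was at 288, 274 and 523 CPM and at 142 and 134 CPM (-1.39 ± 0.26, adjusted p = 0.0134). Sesn3 (-1.79 ± 0.42), a FoxO target that restrains mTOR, and the antiproliferative gene Tob1 (-1.08 ± 0.27) complete the 4. In the PI3K list 3 of 37 fell and 0 rose, namely Pik3ip1, Sesn3 and Tsc1 (-2.27 ± 0.57), each a brake on the pathway. The PI3K count was 0 without CD41+ replicate 2 and with control libraries only, and 1 without CD41+ replicate 1. Of 32 ERK pathway and feedback genes 0 passed with edgeR, DESeq2 or limma voom, and with no filter 2 fell. At an unadjusted p under 0.05, 6 were lower and 0 higher, beside 18.9% of all genes in both directions together, and the median was -0.17. None of the 4 quiescence genes passed without CD41+ replicate 2 or without CD41+ replicate 1, where the list medians were -0.36 and -0.51.

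Lymphoid priming genes fell in part. Of 31 tested, 4 fell and 0 rose, with a median of -0.31. Without CD41+ replicate 2, 1 of them passed. Flt3 (chromosome 5, 147330741 to 147400489, minus strand), the receptor of lymphoid-primed progenitors, was at 96.0, 136 and 172 CPM in CD41- and at 29.9 and 40.8 CPM in CD41+ cells (-1.93 ± 0.37, adjusted p = 0.0164). Ltb, lymphotoxin beta, was at 186, 131 and 174 CPM and at 54.8 and 51.3 CPM (-1.63 ± 0.25, adjusted p = 0.00516). Foxp1 (chromosome 6, 98925338 to 99522721, minus strand), a factor of early B cells, was at 119, 99.2 and 106 CPM and at 28.1 and 39.0 CPM (-1.69 ± 0.23, adjusted p = 0.00359). In all of these the higher CD41+ library was under the lowest CD41- library by more than 2-fold, and Foxp1 was called whichever of the 11 libraries was removed. Tcf4, of the E proteins, fell by 0.89 ± 0.22 on the log2 scale. Dntt (0.41 ± 0.73) and Il7r (2.86 ± 1.30), which mark later lymphoid steps, did not pass, and the median of the list was 0.07 without CD41- replicate 2.

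Receptor tyrosine kinases, which the title of the series names, were read gene by gene. Of 53 on the list, 29 passed the filter on low counts and 24 did not, and of the 29 only Flt3 was called. Per exonic length, Kit was the most abundant in both fractions, at 71.3 RPKM in CD41- and 51.6 RPKM in CD41+ cells, where RPKM is the mean CPM per kilobase of exon. Tie1 followed at 28.1 and 24.6 RPKM and Tek, the receptor of angiopoietin, at 22.8 and 19.4 RPKM. In CPM, Tie1 overlapped between the fractions, with 162, 111 and 141 against 145 and 96.5 CPM (-0.19 ± 0.29), and so did Tek, with 119, 83.8 and 121 against 105 and 77.9 CPM (-0.24 ± 0.38). Kit ranged from 356 to 867 CPM, a spread wider than its difference between fractions. Flt3 was at 21.8 RPKM in CD41-, near Tek, and at 5.72 RPKM in CD41+ cells, below Axl (8.65 RPKM) and Csf1r (6.72 RPKM). Igf1r, the receptor of insulin-like growth factor, was at 93.5, 65.7 and 68.1 CPM and at 39.5 and 37.4 CPM, without overlap and without passing (-0.98 ± 0.38, adjusted p = 0.178). Insr (-1.67 ± 0.58) and Met (-3.01 ± 0.93) were lower without overlap and did not pass either. Axl was at 9.25 RPKM in CD41- cells, and every other tested receptor, Igf1r included, was at or under 4.51 RPKM there. Of 21 tested ligands 2 rose: Pros1, a ligand of the receptors of the Axl family, at 26.1, 40.3 and 31.9 CPM and at 82.3 and 60.6 CPM (1.12 ± 0.27, adjusted p = 0.0457), and Kitl, which is given with the stromal genes. With control libraries only, and also with limma voom, 0 of the ligands passed. Among 47 genes of the JAK-STAT pathway and its receptors, 1 rose and 0 fell.

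**Figure D3:**
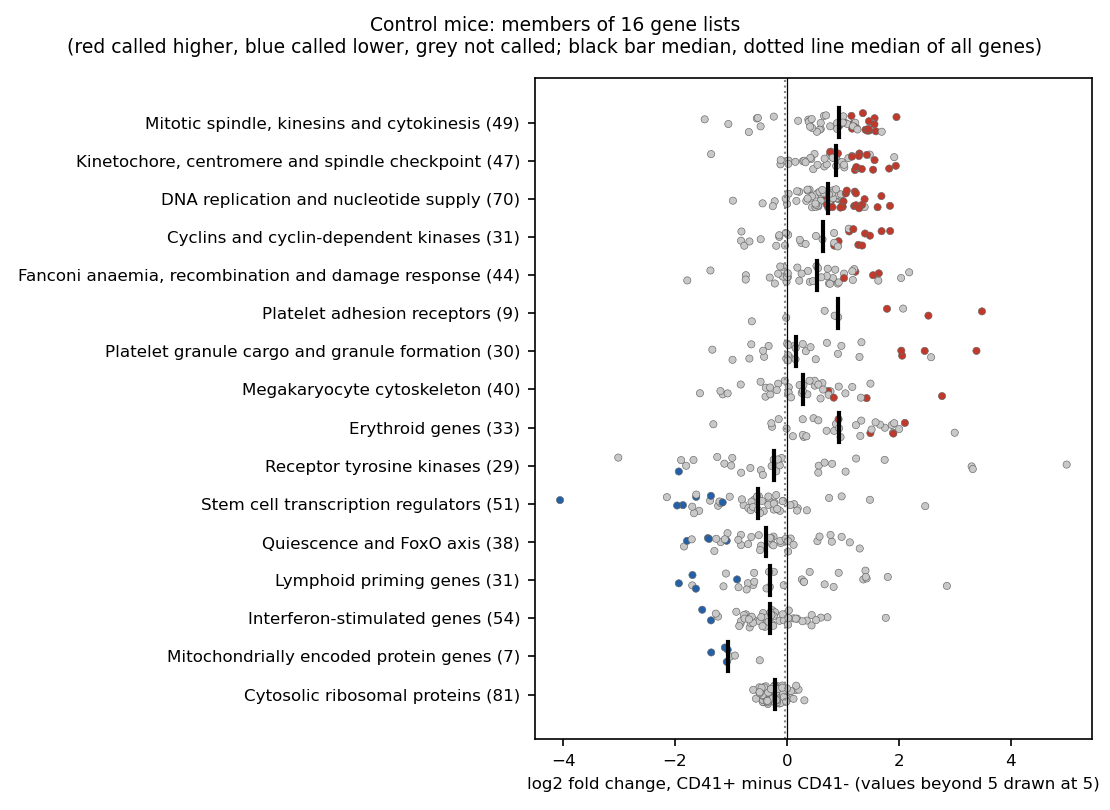
Log2 fold changes of CD41+ over CD41- cells for the tested members of 16 lists, 1 point per gene, with the number tested in brackets. Red points passed as higher and blue points as lower, black bars are list medians and the dotted line is the median of all genes (-0.03). The upper 4 lists, of the cell cycle, have medians between 0.64 and 0.94, and the stem cell regulators one of -0.52. Values beyond 5 are drawn at 5.

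The largest decreases included single genes of the osmotic stress response, the circadian clock and protein turnover. Ubqln2 (chromosome X, 153498227 to 153501570, plus strand), a shuttle of ubiquitinated proteins, was at 11.8, 27.0 and 23.6 CPM in CD41- and at 0.802 and 0.774 CPM in CD41+ cells. The CD41+ values are 3 counts in each library, so the fitted difference of -4.67 ± 0.74 (adjusted p = 0.00561) rests on few reads. Nfat5, the factor of the osmotic stress response, was at 30.3, 42.9 and 58.6 CPM and at 2.14 and 8.51 CPM (-3.03 ± 0.51, adjusted p = 0.00771). Clock, of the circadian oscillator, was at 8.53, 12.8 and 13.6 CPM and at 1.07 and 2.06 CPM (-2.87 ± 0.60, adjusted p = 0.0228). Bod1l (-3.38 ± 0.70), which guards replication forks, Zfhx3 (-3.06 ± 0.52), a homeobox factor, Trim56 (-2.99 ± 0.57), a ubiquitin ligase of antiviral defence, and Fmnl2 (-2.86 ± 0.71), a formin, were among the 12 largest decreases at a mean of 5 CPM or more. Kcnq1ot1, a long antisense transcript of an imprinted cluster, was at 95.4, 120.2 and 106 CPM and at 14.7 and 5.68 CPM (-3.39 ± 0.60, adjusted p = 0.0131). It lies antisense to a coding gene, and whether the authors counted by strand is unknown here. Of 19 tested long noncoding RNAs, 2 fell (Kcnq1ot1 and Zfas1, -1.56 ± 0.29), 18 had a negative difference and the median was -0.94.

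Genes that fell were mostly long. Their median exonic length was 8728 bases, against 3826.5 bases for genes that rose and 4129 bases for all genes tested. In the 2684 longest genes, 7232 bases and more, 84 fell and 19 rose, and the median difference was -0.32. By library, these genes deviated from their mean over the 5 control libraries by 0.18, 0.02 and 0.18 in CD41- cells and by -0.12 and -0.16 in CD41+ cells on the log2 scale. The part of this length trend in the decreases above was not tested gene by gene. With offsets that remove it, an alternative added after it was seen, 340 genes passed, 241 higher and 99 lower, of which 281 were among the 352. The split of higher against lower calls thus moved, while the cell-cycle lists had 11, 25, 15 and 17 members higher, against 11, 25, 14 and 17 before. Lower calls numbered 4 stem cell regulators against 6, 3 quiescence genes against 4 and 1 PI3K gene against 3, and the PI3K median was -0.22 against -0.42. Among the 197 cell-cycle genes the 65 longest (median 7919 bases) had a median of 0.67 and the 65 shortest (median 2604 bases) one of 0.90.

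Mitochondrially encoded genes were less abundant. Of 7 tested protein genes of the mitochondrial genome, 4 fell and 0 rose, all 7 were lower without overlap, and the median was -1.06. mt-Co1, of cytochrome oxidase (chromosome M, plus strand, 5328 to 6872), was at 7815, 10455 and 9207 CPM in CD41- and at 5053 and 3644 CPM in CD41+ cells (-1.07 ± 0.19, adjusted p = 0.0102). mt-Nd5, of complex I, was at 2366, 2757 and 3179 CPM and at 1315 and 1251 CPM (-1.11 ± 0.18, adjusted p = 0.00561). The sum over the list was 29730 to 38090 CPM in CD41- and 21190 and 15030 CPM in CD41+ cells. CD41+ replicate 2, with the highest neutrophil sum, had the lowest mitochondrial sum, and without it 0 of the 7 passed, with a median of -0.86. Nuclear genes of oxidative phosphorylation did not fall with them: of 77, 1 rose (Cyc1, 0.85 ± 0.20) and 0 fell, with 59 positive and a median of 0.18.

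Metabolic and housekeeping lists moved little. Ldha, lactate dehydrogenase, was at 1535, 1623 and 1460.0 CPM in CD41- and at 2383 and 2963 CPM in CD41+ cells (0.80 ± 0.18, adjusted p = 0.0308), the 1 of 31 glycolysis genes that passed. Of 38 proteasome genes 1 rose (Psmd13, 0.89 ± 0.21), with 36 positive and a median of 0.30, and 0 of 77 mitochondrial ribosomal proteins passed (median 0.24). Of 81 cytosolic ribosomal proteins 0 passed, and their median of -0.21 was -0.01 in CD41+ replicate 1 and -0.46 in replicate 2. In the interferon list 2 of 54 fell and 0 rose (median -0.31): Ifitm1, a membrane protein of antiviral defence, at 935, 1409 and 1249 CPM and at 548 and 387 CPM (-1.36 ± 0.22, adjusted p = 0.00745), and Gbp7 (-1.51 ± 0.33). Abca1, the cholesterol exporter, fell from 14.0, 12.3 and 19.2 CPM to 3.47 and 2.58 CPM (-2.32 ± 0.45, adjusted p = 0.0157), the 1 of 33 cholesterol genes that passed. Jun (-1.05 ± 0.26) and Zfp36l2 (-1.33 ± 0.26) fell among 25 immediate early genes.

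Markers of other cell types were above CD41- levels in several lists, unevenly between the CD41+ libraries. All 19 tested neutrophil genes had a positive difference (median 1.89) and 13 did not overlap. With edgeR 0 passed. At an unadjusted p under 0.05, 6 were higher and 0 lower, beside 18.9% of all genes in both directions together. The count turned on the fit: all 19 passed as higher with no filter, 5 with control libraries only, 1 without the robust option, 1 with DESeq2 and 0 with limma voom. The median was 0.74 without CD41+ replicate 2. S100a8, a granulocyte calcium-binding protein, was at 3518, 6182 and 6163 CPM in CD41- and at 12024 and 39031 CPM in CD41+ cells (2.27 ± 0.92, adjusted p = 0.24). None of the 8 defining neutrophil markers was at 0 in a fraction, so such RNA was present in all pools. In both CD41+ libraries 5 of the 8 were above every CD41- library. Retnlg (19.8 CPM) and Mmp8 (36.6 CPM) were below every CD41- library in CD41+ replicate 1. In replicate 2 they stood at 218 and 389 CPM, above every CD41- library. Of 22 macrophage genes 0 passed with edgeR, while 11 passed as higher with no filter and 1 with DESeq2. At an unadjusted p under 0.05, 5 were higher and 0 lower, beside 18.9% of all genes in both directions together. Of the 22 genes 18 were positive, with sums of 1490 to 2180 CPM in CD41- and 2765 and 2847 CPM in CD41+ cells. Stromal markers were nearly absent from CD41- cells: Cxcl12, the chemokine of the stem cell niche, had 5, 7 and 2 counts in CD41- and 708 and 325 counts in CD41+ libraries. It stood at 1.38, 1.83 and 0.486 CPM and at 189 and 83.9 CPM, and did not pass (6.78 ± 2.56, adjusted p = 0.215). Ibsp, bone sialoprotein, had 0 counts in CD41- and 31 and 61 counts in CD41+ libraries, at least 46.3-fold higher. Kitl, stem cell factor, had 0 counts and then 24 and 12 counts, at least 18.3-fold higher. Of the 6 defining stromal markers, 3 (Kitl, Col3a1 and Ibsp) were at 0 throughout CD41- cells, and Lepr had 1, 1 and 0 counts against 36 and 8. The collagen genes were near the floor in CD41+ cells too. Col3a1 had 6 and 0 counts there, and Col1a1 overlapped, with 0, 0 and 6 counts against 8 and 1. Neither collagen gene was kept by the filter. In the list of endothelial and stromal genes as a whole, 3 of 34 rose and 1 fell, and its sum was 922 to 1095 CPM in CD41- and 1417 and 1027 CPM in CD41+ cells. Basophil and mast cell markers did not separate the fractions, B cell markers were mixed (Cd79b at 59.6 to 69.6 CPM in all 5 libraries), and of the T and NK cell markers Nkg7 rose (0.96 ± 0.20, adjusted p = 0.0236). Cd3e had 1 count in the CD41- libraries and 0 in the CD41+ libraries. The part of such transcripts in the calls of other genes was not tested. Genes known from both megakaryocytes and stroma, such as Sparc and Serpine2, cannot be assigned to either from these pools.

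**Figure D4:**
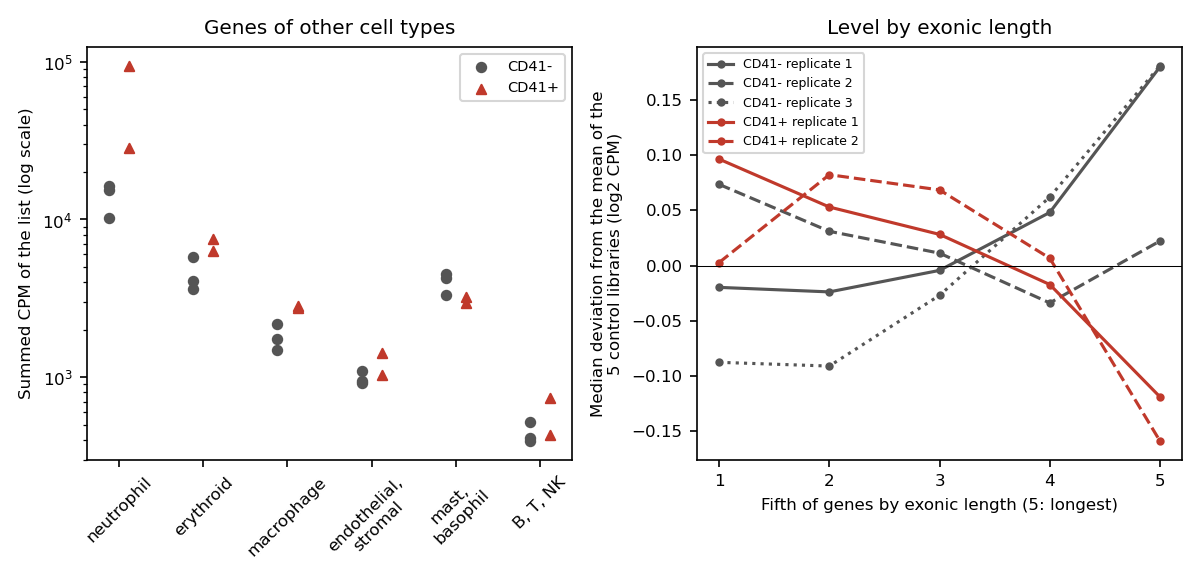
Left, summed CPM of 6 lists of genes of other cell types in each control library on a log scale, circles for CD41- and triangles for CD41+ libraries. The neutrophil sum of CD41+ replicate 2 is the highest, at 94410 CPM. Right, the median deviation in log2 CPM of each control library from the mean of the 5, by exonic length in 5 equal bins of genes. In the longest bin both CD41+ libraries lie below 0, at -0.12 and -0.16, and all CD41- libraries above it.

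The control difference was set beside that in depleted mice, where 26 genes passed (0.193% of 13448), 9 higher (0.0669%) and 17 lower (0.126%), and 9.18% had an unadjusted p under 0.05. The 2 comparisons share no library, and depth was uneven among the depleted libraries. Depleted CD41+ replicate 1 held 0.974 M counts, where the floor of 3 counts is 3.08 per 1 M, and depleted CD41- replicate 1 held 9.95 M. The part of depth in the number of calls in depleted mice was not tested. Of the 212 genes higher in control mice, 179 (84.4%) had a positive difference in depleted mice, where 64.8% of all genes positive in control mice did, and 8 were called there too. Of the 140 genes that were lower, 134 (95.7%) had a negative difference, against 68.5% of all genes negative in control mice, and 11 were called there. Their median differences shrank, from 1.19 to 0.27 for the increases and from -1.66 to -0.61 for the decreases, as far as genes chosen by their control values can show. The 8 shared increases were Itga2b, Gp1bb, Gp5, Tuba8, Clu, Ibsp, Cavin2 (2.01 in control and 2.23 in depleted mice), a caveolar coat protein, and Slc14a1 (1.96 and 1.39), a urea transporter. Shared decreases included Hlf, Procr, Flt3, Ltb, Ifitm1 and mt-Co1.

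Platelet and cell-cycle genes in depleted mice were read side by side. Gp5 was at 5.91, 3.35 and 4.26 CPM in depleted CD41- and at 41.2, 40.8 and 23.3 CPM in depleted CD41+ cells (2.90 ± 0.33, adjusted p = 0.00174), and the platelet receptor median was 1.42. Of the 197 cell-cycle genes, edgeR called 0 in depleted mice, 15 were higher and 2 lower at an unadjusted p under 0.05, 126 were positive and the median was 0.10. Ccnb2, at 123, 114 and 86.1 CPM in control CD41- and 227 and 295 CPM in control CD41+ libraries, was at 372, 345 and 393 CPM in depleted CD41- and at 341, 370 and 393 CPM in depleted CD41+ libraries. There the fractions overlapped (-0.00 ± 0.16), and every depleted library was above the control CD41+ ones. Rrm1 was at 972, 978 and 826 CPM in depleted CD41- and at 1147, 1136 and 951 CPM in depleted CD41+ cells. The depleted CD41- libraries thus overlapped the control CD41+ libraries for Rrm1 and lay above them for Ccnb2. The difference between the 2 CD41 differences was tested by the interaction term, and 0 genes passed with edgeR, with 825 (6.13%) at an unadjusted p under 0.05, while DESeq2 called 35 and limma voom 0. For Rrm1 it was 1.12 ± 0.22 (adjusted p = 0.304), for Cdca8 1.19 ± 0.22 (adjusted p = 0.304) and for Zfp608 -3.32 ± 0.58 (adjusted p = 0.304). For Itga2b it was 0.17 ± 0.36 (adjusted p = 0.972).

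**Figure D5:**
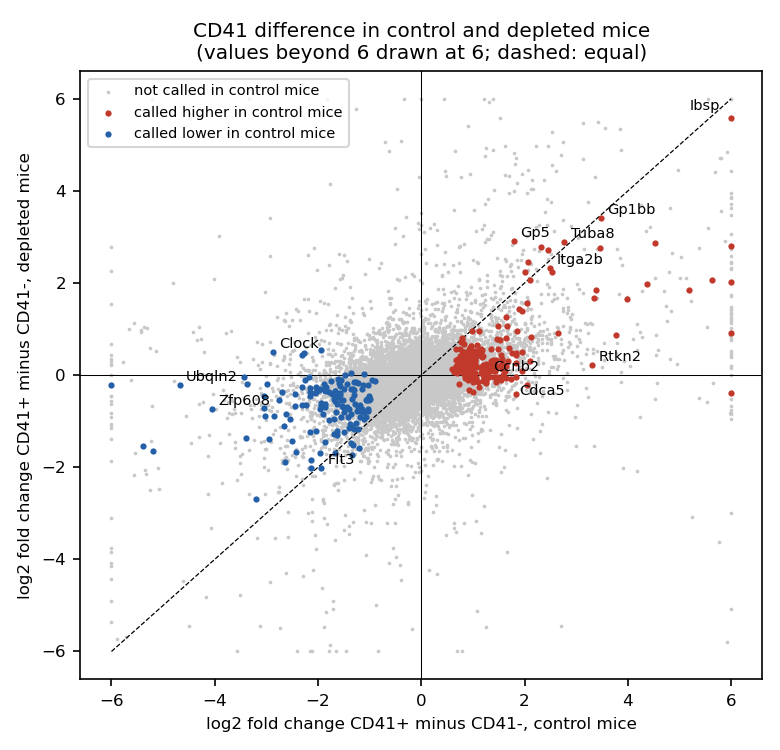
Log2 fold change of CD41+ over CD41- cells in control mice (horizontal) and in depleted mice (vertical), 1 point per gene, with genes called in control mice in colour. Gp1bb, Tuba8 and Itga2b lie near the dashed line of equal differences, Ccnb2 and Cdca5 near 0 in depleted mice. Values beyond 6 are drawn at 6.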

How the data were processed

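RNA of 1000 sorted cells per library was sequenced. The deposited values are whole-number counts per gene, which the authors made with cutadapt, STAR and HTSeq 0.6.1p1 on GRCm38 (mm10), per the submitters' processing notes. No strand setting or annotation release is stated there, so antisense, overlapping and near-identical genes are uncertain. Of 49585 entries, 49326 matched a symbol of GENCODE M21 and 24487 were 0 in every library.

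Genes were kept with filterByExpr (minimum count 10, total 15), scaled by TMM and tested with the robust quasi-likelihood test of edgeR 4.0.16 in R 4.3.3 over 11 libraries, with 1 coefficient per group and Benjamini-Hochberg adjustment at 0.05. SE is the log2 fold change over the root of F. In simulated counts of 13448 genes at the size of the control comparison, 0.995%, 8.96% and 54.5% of genes changed 1.5-, 2- and 4-fold were recovered, and 1.54% of calls were false. The simulation held no length trend and no RNA of other cells that differed between libraries. Its share of false calls therefore may not hold for these data.

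Alternatives used other scaling, filters and spread estimates, DESeq2 1.42.0, limma 3.58.1, control libraries alone and each library left out. Members and lists were chosen with earlier results of these data known. Named genes were those of the gate, the 12 largest calls in each direction at 5 CPM or more without overlap, up to 6 called members of each list by p (otherwise up to 2), all tested receptor tyrosine kinases and markers of other cells at 50 CPM or more; further list members named in the text were chosen after their values were seen. RefSeq promoter windows are of GRCm38.p6. A few genes are not reported here.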

Additional observations from a re-analysis of the deposited data

How the results depend on the processing

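No paired analysis was run because the labels state no pairing, and replicates were numbered in accession order. Title numbers alternate between CD41- and CD41+ libraries, and between 5 and 7 a number is absent. Whether a CD41- and a CD41+ library came from the same pool of mice is not stated, and the fit treated them as independent. Calls between CD41+ and CD41- cells in control mice came to 1142 (701 higher, 441 lower) with no filter, 994 (525, 469) with DESeq2, 176 (115, 61) with limma voom and 143 (88, 55) with control libraries only, and 129 were higher with library size alone. In depleted mice they came to 387 (233, 154) with no filter, 204 (111, 93) with DESeq2 and 104 (72, 32) with limma voom; 15 were higher with length offsets and 11 lower without the robust option. The interaction had 178 calls (139, 39) with no filter and 35 (24, 11) with DESeq2. Leaving out 1 library gave 48 to 545 calls in control mice (32 to 308 higher, 16 to 237 lower) and 5 to 32 in depleted mice (4 to 14, 0 to 18). The causes were not tested. Of 117 named genes that passed, 26 passed without any 1 of the 11 libraries, among them Itga2b, Gp1bb, Tuba8, Clu, Foxp1, Ccne2, Ccna2, Ccnb1, Rrm1 and Cdca8, and 0 reversed under any alternative run. In the control libraries, depth limits genes near the floor of 0.703 to 0.867 per 1 M counts before TMM scaling. The floor of depleted CD41+ replicate 1 was 3.08. In simulated counts 8.96% of 2-fold changes were recovered.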
